A study of Saccharomyces cerevisiae with 18 samples.

Results

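The genes described here encode 10 proteins of the yeast cell wall and cell surface: the PIR proteins *PIR1*, *PIR3*, *HSP150* and *CIS3*, the GPI-anchored proteins *PST1*, *CWP1*, *CWP2*, *CRH1* and *SED1*, and the secreted glycoprotein *YGP1*. They were taken by name from the 6713 loci with counts. RNA-Seq was made from S96, a haploid MATa laboratory strain (lys5) whose chromosomal *YRR1* had been replaced by a hygromycin marker and which carried an allele of *YRR1* on plasmid pGS35 under its own promoter and terminator, with G418 in the medium to keep the plasmid. *YRR1* encodes a zinc cluster transcription factor of multidrug resistance. The alleles were those of S96 (Yrr1S) and of the clinical isolate YJM789 (Yrr1Y), and the S96 allele with the I775E change, made to mimic phosphorylation (Yrr1IE), and whether a strain came from 1 or more transformants is not given in the sources used here. Cells were grown in YPD for 2.5 h from early log phase, in YPD with 0.25 µg/ml 4-nitroquinoline-N-oxide (4NQO, a DNA-damaging compound) for 2.5 h, or with 3% glycerol as the carbon source, for 10 h after a wash according to the methods of the study. The labels describe growth in glycerol to mid-log phase and give no time, so carbon source, time and the wash cannot be told apart in that medium. There were 9 conditions of 2 libraries, and libraries are named S1 to S18: Yrr1S S3 and S4 in YPD, S9 and S10 in 4NQO, S15 and S16 in glycerol; Yrr1Y S1 and S2, S7 and S8, S13 and S14; Yrr1IE S5 and S6, S11 and S12, S17 and S18.

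The yeast wall is a mesh of glucan and chitin covered by mannoproteins. PIR proteins (proteins with internal repeats) are O-mannosylated, are cut by the Kex2 protease and are bound to glucan through alkali-sensitive bonds, whereas GPI proteins are transferred from their lipid anchor to glucan. When the wall is stressed, surface sensors act through the kinase Pkc1 on a kinase cascade that ends in the MAP kinase Slt2, and Slt2 activates the transcription factor Rlm1, for which many wall protein genes are known targets. Other wall genes follow the cell cycle, the general stress factors Msn2 and Msn4, or the carbon source.

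In R64-1-1 coordinates the PIR genes among the 10 form neighbouring pairs. *PIR5* (YJL160C) is not among the 10, and its position and sequence were not compared with theirs. *PIR1* (YKL164C, chrXI:141794-142819, minus strand) and *PIR3* (YKL163W, chrXI:144401-145378, plus strand) are divergent with 1581 bases between them, and *HSP150* (YJL159W, chrX:120449-121690, plus strand) and *CIS3* (YJL158C, chrX:122265-122948, minus strand) are convergent with 574 bases between them. *CWP2* (YKL096W-A, chrXI:259253-259531) and *CWP1* (YKL096W, chrXI:261132-261851) follow each other on the plus strand at a distance of 1600 bases. *PST1* (YDR055W, chrIV:563527-564861, plus), *SED1* (YDR077W, chrIV:600793-601809, plus), *CRH1* (YGR189C, chrVII:876669-878192, minus) and *YGP1* (YNL160W, chrXIV:336545-337609, plus) stand apart. No other counted locus overlaps any of the 10 coding regions. *PIR1* and *PIR3* share identical stretches of up to 81 bases, and 8 of the 903 windows of 76 bases (the read length) in *PIR3* also occur in *PIR1*. A read within them has no unique place when taken without its mate. Whether the mate placed such pairs was not tested. *CIS3* and *HSP150* share at most 65 bases, and no other pair of the 10 genes shares a window of 76 bases.

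The sequences before the start codons are shown because several of these genes share a motif there. The consensus of Rlm1 was searched on both strands in the 500 bases before the start codon, and it was found at 5 of the 10 genes and at 1.81% of all 6006 protein-coding genes with such a stretch. The 5 matches follow in R64, 5′ to 3′ on the gene's strand, with the motif in capitals, and begin 280, 223, 305, 386 and 480 bases before the start codons of *PIR3* (chrXI:144111-144140), *HSP150* (chrX:120216-120245), *PST1* (chrIV:563212-563241), *CWP1* (chrXI:260736-260765) and *SED1* (chrIV:600303-600332), all on the plus strand.
PIR3: gattagcaaaCTAATTATAGatcaaaggcc
HSP150: acattttgagCTAAATTTAGattttggtca
PST1: ttacgagtctCTAAAAATAGcgtaggcaca
CWP1: tacgtcataaCTAAAAATAGcgttagccac
SED1: gcatatatcgCTAAAATTAGccatcagaac
*PST1* and *CWP1* held the same 10 letters, and they share the 3 bases after the motif as well.

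Motifs of other regulators were also looked for on both strands of the same stretches. AGGGG, the stress response element bound by Msn2 and Msn4, was found at 7 of the 10 genes (*PIR1*, *PIR3*, *HSP150*, *CIS3*, *CWP1*, *SED1* and *YGP1*) and at 34.1% of all genes. CACGAAA, bound by SBF, was found at *CRH1* and at 7.14% of all genes. The pattern searched as the Yrr1 response element was at 1.67% of all genes and at 0 of the 10. Other forms of a Yrr1 site, such as the motifs that the study predicted for Yrr1, were not searched. The 0 is therefore a count for that pattern and does not show that Yrr1 sites are absent. The matches at *PIR1* (chrXI:142828-142852, minus strand), *PIR3* (chrXI:144089-144113, plus), *CIS3* (chrX:123232-123256, minus), *SED1* (chrIV:600595-600619, plus) and *YGP1* (chrXIV:336101-336125, plus) are printed because these genes were called in both media with Yrr1S: *PIR3*, *SED1* and *YGP1* rose in both, *PIR1* fell in both, and *CIS3* rose in 4NQO and fell in glycerol. The rise of *CIS3* in 4NQO was close to the threshold (edgeR, adjusted p = 0.0499) and was lost in other fits, as given below. In *PIR1* and *CIS3* the capitals mark the complement CCCCT.
PIR1, stress response element: ctacaaaactCCCCTaatagtatat
PIR3, stress response element: tgcaagttaaAGGGGatcaaacgat
CIS3, stress response element: ttttctttttCCCCTtttgctacgg
SED1, stress response element: gattggccgtAGGGGctggggtaga
YGP1, stress response element: ttctcgaagaAGGGGccgaaaatta
A match is a run of letters and was not tested as a binding site.

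**Figure D1:**
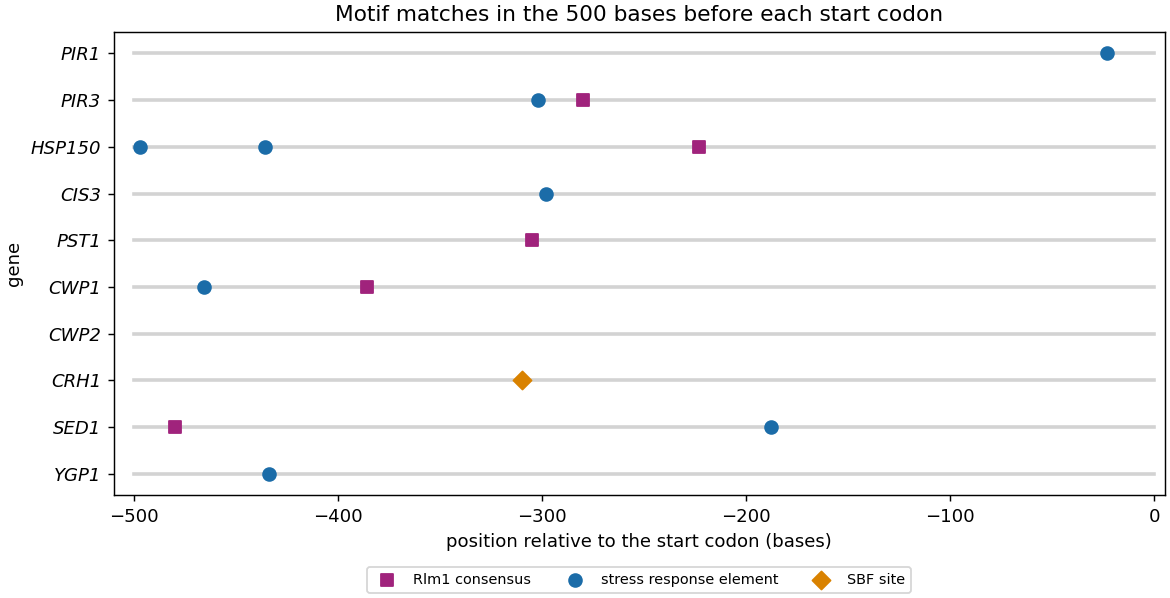
Motif matches in the 500 bases before the start codon of each gene, with the distance from the start codon in bases on the x axis and 1 line per gene. Squares mark the Rlm1 consensus, found at 5 genes between 480 and 223 bases before the start codon, and circles mark the stress response element, found at 7 genes. The diamond marks the SBF site (*CRH1*), and *PST1*, *CWP2* and *CRH1* had no stress response element.

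Total counts in genes ran from 1475372 to 2826771 per library, and 6020 to 6149 loci had at least 1 count. Of the 6713 loci, 5766 passed the expression filter of edgeR and were tested, all 10 wall protein genes among them. *YRR1* was at 41.4 to 253 CPM (the count scaled by the TMM-adjusted library total), lowest with Yrr1IE in each medium. *SNF1*, the gene of the kinase that relieves glucose repression, had 0 and 0, 0 and 2, and 1 and 0 counts in the Yrr1IE libraries in YPD, 4NQO and glycerol, against 179 to 297 counts in every library of the other alleles. Every difference between Yrr1IE and another allele given here is therefore also a difference between libraries almost without and with *SNF1* reads, and these cannot be told apart. The markers of a cells, the labelled mating type, summed to 308 to 4692 CPM over 7 genes, with the lowest sums in glycerol (308 to 312 with Yrr1S). Those of alpha cells summed to 59.4 to 175 CPM over 4. Of these *SAG1* had 94 to 199 counts, *STE3* 2 to 74, *MF(ALPHA)2* 4 to 22 and *MF(ALPHA)1* at most 11. Sporulation markers summed to 60.3 to 205 CPM over 8 genes. Libraries of a condition were taken as separate samples. The labels name 2 replicated cultures, split between YPD and 4NQO, and do not say which libraries shared one, so p-values measure the spread between libraries whose origin is partly shared.

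Several of these genes were among the abundant transcripts. Together the 10 genes held 1.61% and 1.76% of all counts in the Yrr1S libraries in YPD, 2.62% and 2.87% in 4NQO and 2.94% and 3.01% in glycerol. With Yrr1Y the shares were 1.8% and 1.97%, 2.37% and 2.38% and 2.68% and 2.69%. With Yrr1IE they were 2.44% and 2.44%, 1.79% and 1.91% and 2.03% and 2.15%, so that the order of alleles in YPD was the reverse of that in 4NQO and glycerol. Per length, as the deposited FPKM, *CWP2* was the highest of the 10 in 8 conditions, at 18716 ± 1482 FPKM with Yrr1S in YPD (SD, n = 2), followed by *SED1* at 3899 ± 285. *HSP150* (2698 ± 87.3), *CIS3* (2514 ± 244) and *PIR1* (1347 ± 86.7) came next, with *HSP150* and *CIS3* closer to each other than the SD of *CIS3*. *CRH1* (345 ± 7.99), *YGP1* (305 ± 79.9), *CWP1* (204 ± 68.0) and *PST1* (130.5 ± 26.4) were lower, and *PIR3* was lowest at 21.1 ± 7.35 FPKM. In glycerol with Yrr1S *PIR3* reached 1001 ± 118 FPKM, next to *PIR1* at 890.4 ± 20.6, and *CWP1* was lowest at 284 ± 20.8. With Yrr1IE in glycerol *SED1* (6833 ± 877 FPKM) and *YGP1* (5117 ± 164) stood above *CWP2* (3673 ± 672).

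**Figure D2:**
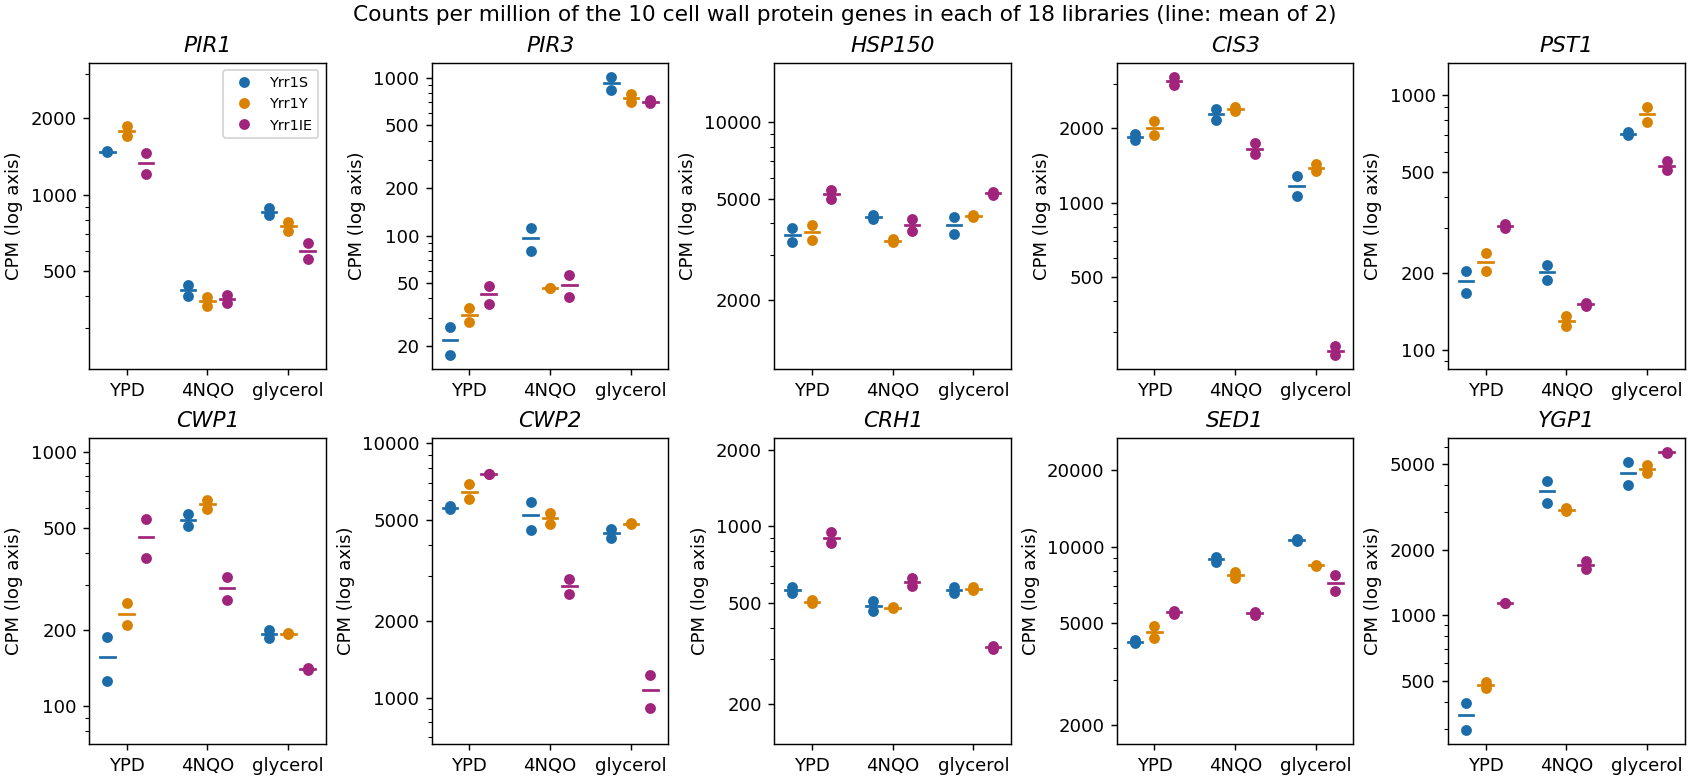
CPM (y axis, logarithmic) of the 10 genes in each library, by medium on the x axis and by allele in colour; points are the 2 libraries of a condition and lines their mean. By condition means *PIR3* and *YGP1* were lowest in YPD and highest in glycerol. Single libraries overlapped between YPD and 4NQO for *PIR3* and between 4NQO and glycerol for *YGP1*. *PIR1* was highest in YPD and lowest in 4NQO, and with Yrr1IE in glycerol *CIS3* (241 to 264 CPM) and *CWP2* (914 to 1226 CPM) lay below every other library.

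Over the 9 condition means the range was widest for *PIR3* (42.1-fold), *YGP1* (16.4-fold) and *CIS3* (12.2-fold), and narrowest for *HSP150* (1.54-fold), *SED1* (2.51-fold) and *CRH1* (2.7-fold). *CWP2* (7.07-fold), *PST1* (6.47-fold), *PIR1* (4.68-fold) and *CWP1* (4.44-fold) lay between. *PIR3*, *SED1* and *YGP1* were lowest with Yrr1S in YPD, *CIS3*, *CWP1*, *CWP2* and *CRH1* with Yrr1IE in glycerol, and *PIR1*, *HSP150* and *PST1* with Yrr1Y in 4NQO. With the conditions of a gene put in order of their means, libraries overlapped in 6 of the 8 neighbouring pairs for *HSP150*, 4 for *CRH1* and *CWP1*, 3 for *PIR3* and *CWP2*, and 2 for *PIR1*, *CIS3*, *PST1*, *SED1* and *YGP1*. For *PIR1* these were the 3 alleles in 4NQO, whose order there these libraries do not set.

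The change from YPD to 4NQO was compared within each allele, with edgeR's quasi-likelihood test and adjusted p-values over all 5766 genes, called at an adjusted p under 0.05. With Yrr1S 5 of the 10 genes rose (*PIR3*, *CIS3*, *CWP1*, *SED1* and *YGP1*) and *PIR1* fell, where among all genes 15.9% were called higher and 15.3% called lower. With Yrr1Y 3 rose (*CWP1*, *SED1* and *YGP1*) and 2 fell (*PIR1* and *PST1*), beside 10.3% of all genes called higher and 9.85% called lower. With Yrr1IE only *YGP1* rose and 7 fell, all but *PIR3* and *SED1*, beside 12.9% of all genes called higher and 13% called lower. The median log2 fold change of the 10 genes was 0.27, 0.09 and -0.62 with Yrr1S, Yrr1Y and Yrr1IE, and that of all genes 0.03, 0.03 and 0.02.

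From YPD to glycerol the same 4 genes, *PIR3*, *PST1*, *SED1* and *YGP1*, rose with each allele. *PIR1*, *CIS3* and *CWP2* fell with each, and with Yrr1IE *CWP1* and *CRH1* fell too. Among all genes 29.1% were called higher and 28.6% called lower with Yrr1S, 28.5% called higher and 27% called lower with Yrr1Y and 33.2% called higher and 32.3% called lower with Yrr1IE, so that calls were common in this medium. The median over the 10 genes was 0.22, 0.19 and -0.57, against 0.04, 0.04 and 0.03 over all genes. The comparisons with 4NQO and with glycerol use the same YPD libraries.

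**Figure D3:**
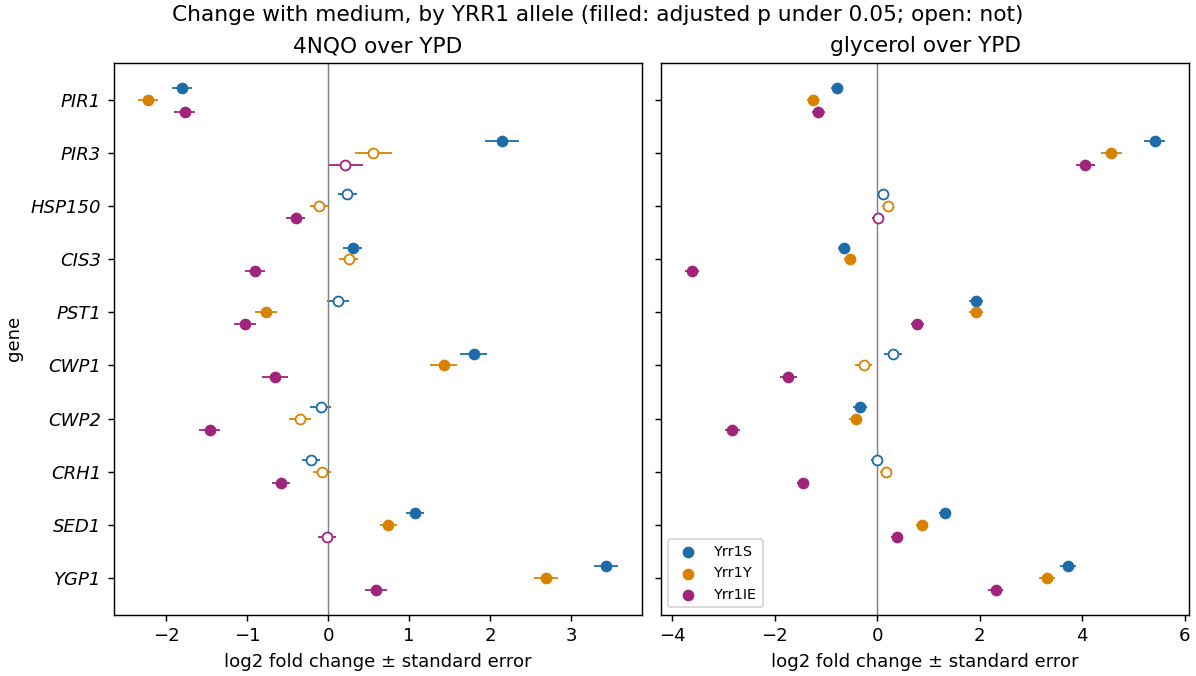
Log2 fold change of each gene from YPD to 4NQO (left) and from YPD to glycerol (right), with its standard error, in cells with Yrr1S, Yrr1Y or Yrr1IE; filled points passed an adjusted p of 0.05. *PIR1* was negative in all 6 comparisons, *PIR3* ran from 4.06 to 5.42 in glycerol, and in 4NQO *CWP1* was positive with Yrr1S and Yrr1Y and negative with Yrr1IE.

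*PIR1*, a PIR protein expressed at the passage from mitosis to G1, was the one gene of the 10 that fell in both media with every allele. In YPD its libraries held 1485 and 1474 CPM with Yrr1S, 1861 and 1709.8 with Yrr1Y and 1206 and 1464 with Yrr1IE. In 4NQO they held 444 and 399 CPM with Yrr1S, 365 and 398 with Yrr1Y and 402 and 377 with Yrr1IE. All 6 libraries in 4NQO lay below all 6 in YPD, and those of the alleles lay close to each other. Its log2 fold change in 4NQO was -1.81 (standard error 0.12, adjusted p = 1.12e-12) with Yrr1S, -2.23 (standard error 0.13, adjusted p = 1.99e-14) with Yrr1Y and -1.78 (standard error 0.13, adjusted p = 7.51e-12) with Yrr1IE, or 3.51-, 4.68- and 3.42-fold lower. In glycerol the libraries held 832 and 885 CPM with Yrr1S, 723 and 781 with Yrr1Y and 561 and 645 with Yrr1IE, between the levels of 4NQO and YPD. The change from YPD was -0.79 (standard error 0.12, adjusted p = 1.79e-06), -1.25 (standard error 0.12, adjusted p = 3.66e-10) and -1.15 (standard error 0.12, adjusted p = 1.97e-09) in the same order of alleles.

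*PIR3*, the divergent neighbour of *PIR1*, went the other way and had the widest range of the 10. In YPD it was at 26.4 and 17.4 CPM with Yrr1S, 34.8 and 28.3 with Yrr1Y and 48.1 and 36.8 with Yrr1IE. In 4NQO it was at 112 and 79.9 CPM with Yrr1S, 46.4 and 46.4 with Yrr1Y and 56.1 and 41.0 with Yrr1IE. The Yrr1S libraries stood above those of the other alleles in 4NQO, and in YPD they were the lowest. The log2 fold change in 4NQO was 2.15 (standard error 0.22, adjusted p = 3.94e-09) with Yrr1S, 0.56 (adjusted p = 0.0892) with Yrr1Y and 0.21 (adjusted p = 0.517) with Yrr1IE, of which the first passed the test. In glycerol it was at 831 and 1012 CPM with Yrr1S, 707 and 788 with Yrr1Y and 691 and 723 with Yrr1IE. These levels were 42.7-, 23.7- and 16.7-fold those of YPD, with log2 fold changes of 5.42 (standard error 0.21, adjusted p = 1.15e-19), 4.57 (standard error 0.20, adjusted p = 3.9e-18) and 4.06 (standard error 0.19, adjusted p = 1.28e-17). Its libraries in YPD had the fewest reads of the 10 genes, and they are also where reads shared with *PIR1* could weigh most, which was not tested.

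*HSP150*, a secreted PIR protein whose synthesis rises on heat shock, was the steadiest of the 10. Its level in YPD was 3365 and 3829 CPM with Yrr1S, 3942 and 3445 with Yrr1Y and 4979 and 5403 with Yrr1IE. With 4NQO it stood at 4317 and 4165 CPM with Yrr1S, 3454 and 3361 with Yrr1Y and 3713 and 4143 with Yrr1IE. On glycerol its level was 3614 and 4223 CPM with Yrr1S, 4219 and 4323 with Yrr1Y and 5175 and 5300.0 with Yrr1IE. Over the 9 conditions its mean spanned a 1.54-fold range, and the Yrr1IE libraries in YPD and glycerol lay above all others. It fell in 4NQO with Yrr1IE (-0.40, standard error 0.12, adjusted p = 0.00964), and the values with Yrr1S (0.24, adjusted p = 0.124) and Yrr1Y (-0.12, adjusted p = 0.535) did not pass the test. *HSP150* was no longer called with Yrr1IE without S6 (-0.39, adjusted p = 0.067) or without S11 (-0.39, adjusted p = 0.0616). In glycerol the log2 fold changes were 0.12 (adjusted p = 0.37), 0.21 (adjusted p = 0.125) and 0.01 (adjusted p = 0.929), none of which passed.

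*CIS3*, a PIR protein with fewer repeats than its relatives and the convergent neighbour of *HSP150*, fell in glycerol. The YPD libraries held 1888 and 1789 CPM with Yrr1S, 2126 and 1876 with Yrr1Y and 2970.1 and 3212 with Yrr1IE. The 4NQO libraries held 2381 and 2159 CPM with Yrr1S, 2425 and 2347 with Yrr1Y and 1734 and 1569 with Yrr1IE. Libraries of Yrr1IE were highest in YPD and lowest in 4NQO. The log2 fold change in 4NQO was 0.30 (standard error 0.12, adjusted p = 0.0499) with Yrr1S, 0.25 (adjusted p = 0.135) with Yrr1Y, which did not pass, and -0.90 (standard error 0.12, adjusted p = 1.18e-06) with Yrr1IE. The rise with Yrr1S was lost without S3, S4, S9 or S10, each left out alone (from 0.18 to 0.32, adjusted p from 0.132 to 0.468), with DESeq2 (0.26, adjusted p = 0.0808), in edgeR with DESeq2's size factors (0.26, adjusted p = 0.105) and with no filter on low counts (0.31, adjusted p = 0.0534). In glycerol *CIS3* was at 1284 and 1059 CPM with Yrr1S, 1428 and 1341 with Yrr1Y and 264 and 241 with Yrr1IE. The fall there was -0.65 (standard error 0.12, adjusted p = 2.5e-05) with Yrr1S, -0.53 (standard error 0.12, adjusted p = 0.000338) with Yrr1Y and -3.62 (standard error 0.13, adjusted p = 1.98e-19) with Yrr1IE, the last a 12.3-fold decrease.

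*PST1*, a GPI protein secreted by regenerating protoplasts and a known target of the integrity pathway, rose in glycerol. In YPD it was at 205 and 167 CPM with Yrr1S, 204 and 239.8 with Yrr1Y and 302 and 314 with Yrr1IE. In 4NQO it was at 215 and 188 CPM with Yrr1S, 124 and 136 with Yrr1Y and 149 and 153 with Yrr1IE. With Yrr1S the libraries of both media overlapped, and with the other alleles those in 4NQO were lower. Its log2 fold change in 4NQO was 0.12 (adjusted p = 0.56) with Yrr1S, which did not pass, -0.77 (standard error 0.14, adjusted p = 0.000139) with Yrr1Y and -1.03 (standard error 0.14, adjusted p = 1.59e-06) with Yrr1IE. The glycerol libraries held 720.3 and 696 CPM with Yrr1S, 785 and 902 with Yrr1Y and 509 and 551 with Yrr1IE. The rise was 3.82-fold with Yrr1S (1.93, standard error 0.13, adjusted p = 1.52e-13), 3.8-fold with Yrr1Y (1.93, standard error 0.13, adjusted p = 2.01e-13) and 1.72-fold with Yrr1IE (0.78, standard error 0.13, adjusted p = 5.01e-06).

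*CWP1*, a GPI mannoprotein of the birth scar, rose in 4NQO with Yrr1S and Yrr1Y and fell with Yrr1IE. Its level in YPD was 186 and 125 CPM with Yrr1S, 208 and 254 with Yrr1Y and 383 and 543 with Yrr1IE. With 4NQO it stood at 567 and 510.2 CPM with Yrr1S, 644 and 598 with Yrr1Y and 322 and 262 with Yrr1IE. The highest libraries in YPD were those of Yrr1IE, which were the lowest in 4NQO. The log2 fold change in 4NQO was 1.797 (standard error 0.17, adjusted p = 8.15e-10), 1.43 (standard error 0.16, adjusted p = 8.59e-08) and -0.66 (standard error 0.16, adjusted p = 0.00267) with Yrr1S, Yrr1Y and Yrr1IE, the last of which was lost without S6 (-0.43, adjusted p = 0.121) or without S12 (-0.55, adjusted p = 0.0516). In glycerol it was at 199 and 185 CPM with Yrr1S, 194 and 191 with Yrr1Y and 138 and 142 with Yrr1IE. From YPD to glycerol the change was 0.31 (adjusted p = 0.125) with Yrr1S and -0.26 (adjusted p = 0.194) with Yrr1Y, neither of which passed, and -1.73 (standard error 0.17, adjusted p = 4.08e-10) with Yrr1IE. It did pass with Yrr1S without S3 (0.49, adjusted p = 0.0404) and with Yrr1Y without S1 (-0.50, adjusted p = 0.0445), in opposite directions.

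*CWP2*, a small and very abundant GPI mannoprotein, fell in glycerol with each allele. The YPD libraries held 5667 and 5506 CPM with Yrr1S, 6906 and 6024 with Yrr1Y and 7578 and 7554 with Yrr1IE. The 4NQO libraries held 5900.1 and 4582 CPM with Yrr1S, 5322 and 4827 with Yrr1Y and 2925 and 2549 with Yrr1IE. The change in 4NQO was -0.09 (adjusted p = 0.657) with Yrr1S and -0.35 (adjusted p = 0.0618) with Yrr1Y, which did not pass, and -1.47 (standard error 0.14, adjusted p = 1.7e-09) with Yrr1IE. With Yrr1Y it did pass with DESeq2 (-0.38, adjusted p = 0.0353), in a fit of the compared conditions alone (-0.36, adjusted p = 0.00148) and in edgeR with DESeq2's size factors (-0.38, adjusted p = 0.0411). On glycerol its level was 4616 and 4245 CPM with Yrr1S, 4866 and 4812 with Yrr1Y and 914 and 1226 with Yrr1IE. The fall was -0.33 (standard error 0.13, adjusted p = 0.0316) with Yrr1S, -0.42 (standard error 0.13, adjusted p = 0.00841) with Yrr1Y and -2.82 (standard error 0.14, adjusted p = 9.3e-17) with Yrr1IE, or 7.06-fold with the last. With Yrr1S it did not pass without S16 (-0.39, adjusted p = 0.0538) and in a fit of the compared conditions alone (-0.32, adjusted p = 0.0686).

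*CRH1*, the transglycosylase that joins chitin to glucan, changed with medium in Yrr1IE cells. In YPD it was at 549 and 578 CPM with Yrr1S, 498 and 512 with Yrr1Y and 861 and 946 with Yrr1IE. In 4NQO it was at 507 and 467 CPM with Yrr1S, 480.4 and 477 with Yrr1Y and 580.2 and 626 with Yrr1IE. The glycerol libraries held 577 and 548 CPM with Yrr1S, 578 and 559.8 with Yrr1Y and 339 and 329 with Yrr1IE. With Yrr1S and Yrr1Y all 12 libraries lay between 467 and 578 CPM. Log2 fold changes in 4NQO were -0.21 (adjusted p = 0.168) and -0.08 (adjusted p = 0.696) with these alleles, and in glycerol 0.00 (adjusted p = 0.986) and 0.17 (adjusted p = 0.206), none of which passed. With Yrr1IE *CRH1* fell in 4NQO (-0.58, standard error 0.11, adjusted p = 0.00025) and in glycerol (-1.44, standard error 0.12, adjusted p = 4.87e-12).

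*SED1*, the main GPI protein of the wall of stationary cells, rose in both media with Yrr1S and Yrr1Y. Its level in YPD was 4287 and 4200.1 CPM with Yrr1S, 4902 and 4379 with Yrr1Y and 5462 and 5588 with Yrr1IE. With 4NQO it stood at 9121 and 8739 CPM with Yrr1S, 7561 and 7982 with Yrr1Y and 5405 and 5538 with Yrr1IE. With Yrr1IE the libraries of both media overlapped. Its log2 fold change in 4NQO was 1.07 (standard error 0.11, adjusted p = 5.37e-09) with Yrr1S, 0.74 (standard error 0.11, adjusted p = 5.2e-06) with Yrr1Y and -0.01 (adjusted p = 0.945) with Yrr1IE, which did not pass. In glycerol it was at 10534 and 10737 CPM with Yrr1S, 8414 and 8510.3 with Yrr1Y and 7763 and 6692 with Yrr1IE. The rise there was 1.33 (standard error 0.11, adjusted p = 8.5e-12), 0.87 (standard error 0.11, adjusted p = 5.72e-08) and 0.39 (standard error 0.11, adjusted p = 0.00256) in the same order. With Yrr1IE it was lost without S17 (0.28, adjusted p = 0.0572).

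*YGP1*, a secreted glycoprotein known to be induced when nutrients run low, rose in all 6 comparisons. The YPD libraries held 396 and 296 CPM with Yrr1S, 462 and 492 with Yrr1Y and 1146 and 1143 with Yrr1IE. The 4NQO libraries held 4156 and 3313 CPM with Yrr1S, 3024 and 3129.9 with Yrr1Y and 1643 and 1790.2 with Yrr1IE. Yrr1IE cells had the most in YPD and the least in 4NQO. The rise in 4NQO was 10.8-fold with Yrr1S (3.44, standard error 0.15, adjusted p = 8.29e-17), 6.46-fold with Yrr1Y (2.69, standard error 0.15, adjusted p = 6.52e-15) and 1.5-fold with Yrr1IE (0.58, standard error 0.14, adjusted p = 0.00167). On glycerol its level was 3993 and 5122 CPM with Yrr1S, 4530.2 and 4927 with Yrr1Y and 5708 and 5641 with Yrr1IE. The log2 fold change there was 3.72 (standard error 0.15, adjusted p = 5.69e-19), 3.31 (standard error 0.15, adjusted p = 6.87e-18) and 2.31 (standard error 0.14, adjusted p = 6.75e-15).

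Alleles were then compared within each medium. Between Yrr1Y and Yrr1S, edgeR called none of the 10 genes in YPD, where among all genes 0.728% were called higher and 0.156% called lower. An unadjusted p under 0.05 was found for 4 of the 10 and for 670 of all 5766 genes, and DESeq2 called 0 of the 10. In glycerol edgeR again called none, beside 2.98% of all genes called higher and 0.763% called lower. Here 1 of the 10 and 975 of all 5766 genes had an unadjusted p under 0.05, and DESeq2 called 1 of the 10, *SED1* (-0.33, adjusted p = 0.0204). In 4NQO *PIR3* was lower with Yrr1Y (-1.04, standard error 0.19, adjusted p = 0.0151), one of 3 genes called in that comparison, beside 0.0173% of all genes called higher and 0.0347% called lower. *PIR3* was no longer called without S7, S8 or S9, each left out alone (from -1.03 to -0.77, adjusted p from 0.245 to 0.524). In YPD *PIR3* (0.55, adjusted p = 0.404), *CWP1* (0.58, adjusted p = 0.129) and *YGP1* (0.47, adjusted p = 0.142) had the largest values without passing, and *CWP1* did pass without S3 (0.86, adjusted p = 0.0405). *PST1* in 4NQO stood at -0.63 (adjusted p = 0.0995), and DESeq2 called it (-0.61, adjusted p = 0.0101).

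With Yrr1IE in YPD 9 of the 10 genes were higher than with Yrr1S, all but *PIR1*, where among all genes 7.28% were called higher and 4.41% called lower. The median over the 10 was 0.71 and over all genes -0.02. *YGP1* (1144 ± 1.84 CPM against 346 ± 70.8, SD, n = 2) and *CWP1* (463 ± 113 against 156 ± 43.2) differed most, by 1.73 (standard error 0.14, adjusted p = 8.93e-11) and 1.58 (standard error 0.17, adjusted p = 2.23e-08). *PIR3* was higher by 0.97 (standard error 0.24, adjusted p = 0.00492), *CIS3* by 0.75 (standard error 0.12, adjusted p = 2.62e-05), *PST1* by 0.73 (standard error 0.13, adjusted p = 0.0002) and *CRH1* by 0.68 (standard error 0.11, adjusted p = 5.08e-05). *HSP150* (0.53, adjusted p = 0.00167), *CWP2* (0.44, adjusted p = 0.0275) and *SED1* (0.38, adjusted p = 0.0181) were higher by less. Some of these calls changed when a single library was left out: *CWP2* was lost without S3, S4, S5 or S6, each left out alone (from 0.42 to 0.45, adjusted p from 0.104 to 0.158), *SED1* without S3, S4, S5 or S6, each left out alone (from 0.36 to 0.40, adjusted p from 0.0779 to 0.113) and *HSP150* without S3 (0.43, adjusted p = 0.056), and *PIR3* was lost without S4 (0.68, adjusted p = 0.185) or without S5 (0.77, adjusted p = 0.12). *PIR1* stood at -0.15 (adjusted p = 0.49). The Yrr1IE libraries in YPD held no read of *SNF1*, so allele and *SNF1* cannot be told apart in these values.

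Against Yrr1Y in YPD, 6 of the 10 were higher with Yrr1IE (*HSP150*, *CIS3*, *PST1*, *CWP1*, *CRH1* and *YGP1*) and *PIR1* was lower, beside 7.42% of all genes called higher and 6.73% called lower. *YGP1* (1.26, standard error 0.14, adjusted p = 6.1e-08), *CWP1* (1.004, standard error 0.16, adjusted p = 4.73e-05) and *CRH1* (0.84, standard error 0.11, adjusted p = 2.58e-06) differed most. The difference of *PIR1* (-0.42, adjusted p = 0.0171) was lost without S1, S2 or S5, each left out alone (from -0.46 to -0.26, adjusted p from 0.0548 to 0.319), that of *PST1* (0.47, adjusted p = 0.0168) without S1 (0.38, adjusted p = 0.175) or without S6 (0.46, adjusted p = 0.0854) and that of *HSP150* (0.49, adjusted p = 0.00339) without S2 (0.42, adjusted p = 0.0782). This comparison uses the same Yrr1IE libraries as the one with Yrr1S.

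In 4NQO, where the Yrr1IE libraries had 0 and 2 counts of *SNF1*, the direction was the opposite: 6 of the 10 genes were lower with Yrr1IE than with Yrr1S (*PIR3*, *CIS3*, *CWP1*, *CWP2*, *SED1* and *YGP1*), where among all genes 2.01% were called higher and 2.5% called lower. The median was -0.58, against -0.01 over all genes. *YGP1* was at 1716 ± 104 CPM against 3735 ± 596 (-1.12, standard error 0.14, adjusted p = 1.73e-06), and *CWP2* at 2737 ± 266 against 5241 ± 932 (-0.94, standard error 0.13, adjusted p = 1.78e-05). *CWP1* (-0.88, standard error 0.16, adjusted p = 0.000607), *PIR3* (-0.97, standard error 0.20, adjusted p = 0.00188), *SED1* (-0.71, standard error 0.11, adjusted p = 5.53e-05) and *CIS3* (-0.46, standard error 0.12, adjusted p = 0.0186) were lower too. *PIR3* was lost without S9 (-0.69, adjusted p = 0.121) or without S12 (-0.74, adjusted p = 0.0922), and *CIS3* without S9, S10 or S12, each left out alone (from -0.52 to -0.36, adjusted p from 0.057 to 0.278). Against Yrr1Y 5 were lower (*CIS3*, *CWP1*, *CWP2*, *SED1* and *YGP1*), beside 2.03% of all genes called higher and 2.03% called lower. In that comparison *CIS3* (-0.53, adjusted p = 0.00626) was lost without S7 (-0.51, adjusted p = 0.1) or without S12 (-0.45, adjusted p = 0.139), *SED1* (-0.51, adjusted p = 0.00433) without S8 (-0.48, adjusted p = 0.072), and *CRH1* (0.33, adjusted p = 0.108) did not pass except with DESeq2 (0.34, adjusted p = 0.044).

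In glycerol, with 1 and 0 counts of *SNF1* in the Yrr1IE libraries, 8 of the 10 were lower with Yrr1IE than with Yrr1S and *HSP150* was higher, where among all genes 20.7% were called higher and 27.6% called lower. The median was -0.48, against -0.11 over all genes. *CIS3* (253 ± 15.7 CPM against 1171 ± 159, SD, n = 2) was 4.64-fold lower (-2.21, standard error 0.13, adjusted p = 1.53e-14), and *CWP2* (1069.9 ± 220.5 against 4430.4 ± 262) was 4.14-fold lower (-2.05, standard error 0.14, adjusted p = 4.41e-13). *CRH1* (-0.75, standard error 0.12, adjusted p = 4.18e-06), *SED1* (-0.56, standard error 0.11, adjusted p = 9.54e-05) and *PIR1* (-0.51, standard error 0.12, adjusted p = 0.00107) were lower with no library deciding the call. *PIR3* (-0.38, adjusted p = 0.0375) was lost without S16, S17 or S18, each left out alone (from -0.35 to -0.16, adjusted p from 0.126 to 0.502), with DESeq2 (-0.35, adjusted p = 0.0859), in a fit of the compared conditions alone (-0.30, adjusted p = 0.155) and in edgeR with DESeq2's size factors (-0.35, adjusted p = 0.0604). *CWP1* (-0.45, adjusted p = 0.0336) was lost without S15, S16, S17 or S18, each left out alone (from -0.44 to -0.40, adjusted p from 0.101 to 0.161), with DESeq2 (-0.42, adjusted p = 0.0626) and in a fit of the compared conditions alone (-0.37, adjusted p = 0.104), and *PST1* (-0.42, adjusted p = 0.00777) without S16 (-0.37, adjusted p = 0.0563) or without S17 (-0.36, adjusted p = 0.0573) and in a fit of the compared conditions alone (-0.33, adjusted p = 0.108). *HSP150* was higher by 0.42 (adjusted p = 0.00348) and was lost without S15 (0.31, adjusted p = 0.0744), so that *HSP150* and its neighbour *CIS3*, both PIR genes, differed in opposite directions. *YGP1* stood at 0.32 (adjusted p = 0.0514) and did pass without S16 (0.58, adjusted p = 0.00396) or without S18 (0.40, adjusted p = 0.0476), with DESeq2 (0.35, adjusted p = 0.035), in a fit of the compared conditions alone (0.40, adjusted p = 0.0411) and in edgeR with DESeq2's size factors (0.35, adjusted p = 0.0338).

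Against Yrr1Y in glycerol 6 were lower (*PIR1*, *CIS3*, *PST1*, *CWP1*, *CWP2* and *CRH1*) and *HSP150* was higher, beside 17.1% of all genes called higher and 26.1% called lower. *CIS3* (-2.46, standard error 0.13, adjusted p = 2.08e-15) and *CWP2* (-2.18, standard error 0.14, adjusted p = 1.58e-13) again differed most, followed by *CRH1* (-0.77, standard error 0.12, adjusted p = 3.07e-06) and *PST1* (-0.67, standard error 0.13, adjusted p = 7.86e-05). *PIR1* (-0.32, adjusted p = 0.0372) was lost without S13, S14, S17 or S18, each left out alone (from -0.34 to -0.18, adjusted p from 0.0777 to 0.386), with DESeq2 (-0.28, adjusted p = 0.0633), in a fit of the compared conditions alone (-0.23, adjusted p = 0.202) and in edgeR with DESeq2's size factors (-0.28, adjusted p = 0.0721). *CWP1* (-0.46, adjusted p = 0.0337) was lost without S13, S14, S17 or S18, each left out alone (from -0.44 to -0.36, adjusted p from 0.105 to 0.213), with DESeq2 (-0.42, adjusted p = 0.063), in a fit of the compared conditions alone (-0.37, adjusted p = 0.0771) and in edgeR with DESeq2's size factors (-0.42, adjusted p = 0.0509). *HSP150* (0.29, adjusted p = 0.0394) was lost without S13 (0.37, adjusted p = 0.0666) or without S17 (0.31, adjusted p = 0.0745) and with no filter on low counts (0.28, adjusted p = 0.0555). *SED1* (-0.23, adjusted p = 0.0909) did pass without S17 (-0.34, adjusted p = 0.039), and *YGP1* (0.26, adjusted p = 0.115) in a fit of the compared conditions alone (0.35, adjusted p = 0.0154).

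**Figure D4:**
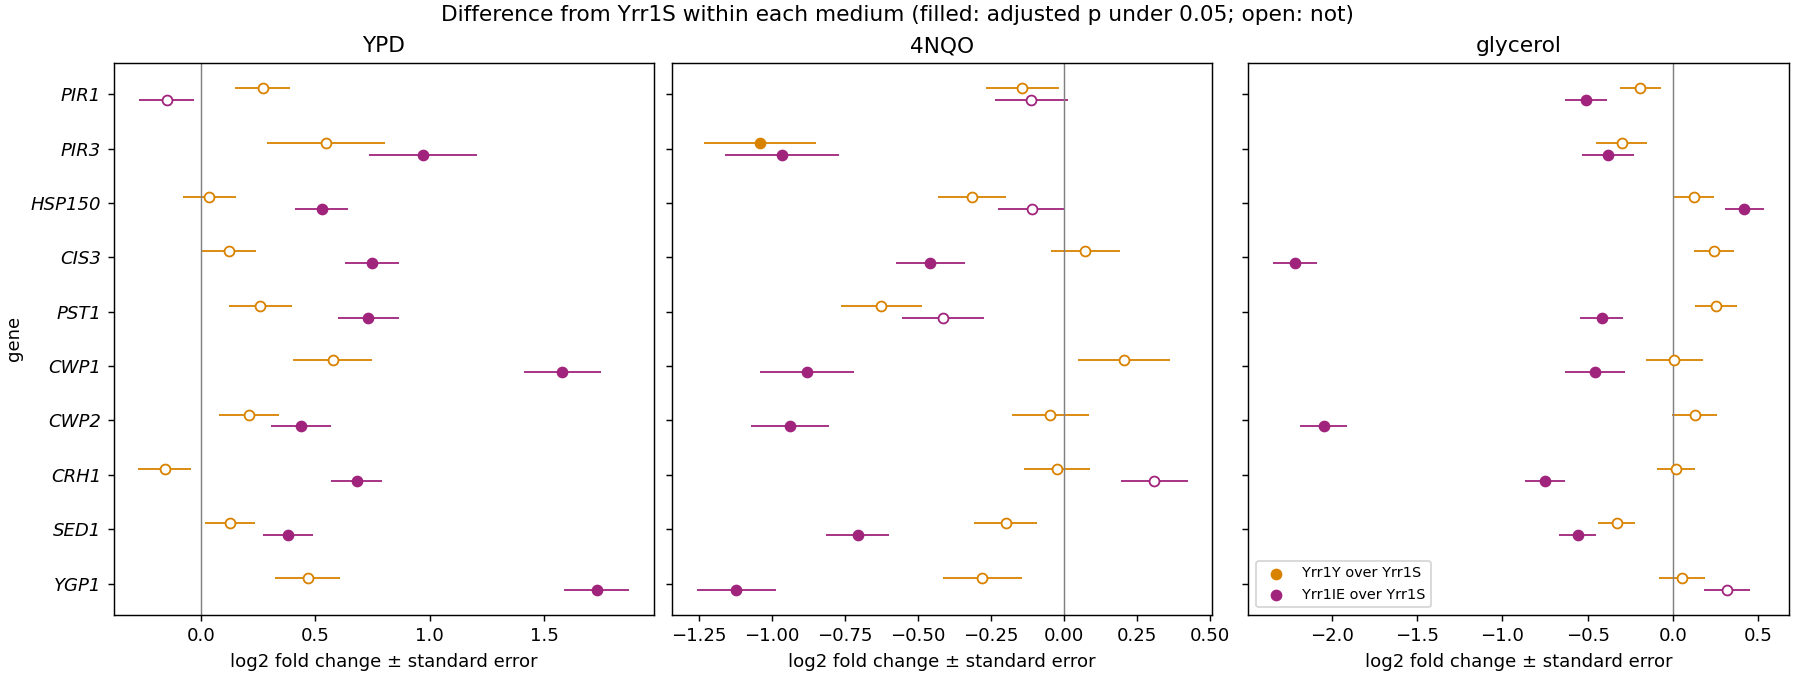
Log2 fold change of each gene relative to Yrr1S in YPD (left), 4NQO (middle) and glycerol (right), with its standard error, for Yrr1Y and for Yrr1IE; the x axes differ in range, and filled points passed an adjusted p of 0.05. With Yrr1IE 9 genes were higher in YPD, 6 were lower in 4NQO and 8 were lower in glycerol, while with Yrr1Y only *PIR3* in 4NQO passed.

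Whether the response to a medium differed between alleles was tested as a contrast of contrasts. The response to 4NQO was lower with Yrr1IE than with Yrr1S in 8 of the 10 genes, all but *PIR1* and *CRH1*, where among all genes 1.44% were called higher and 3.62% called lower. The differences were largest for *YGP1* (-2.85, standard error 0.20, adjusted p = 8.51e-12), *CWP1* (-2.46, standard error 0.23, adjusted p = 6.63e-09) and *PIR3* (-1.94, standard error 0.31, adjusted p = 6.27e-05). Those of *CWP2* (-1.37), *CIS3* (-1.21), *PST1* (-1.15), *SED1* (-1.09) and *HSP150* (-0.64) also passed, and *HSP150* was lost without S3, S6, S9 or S11, each left out alone (from -0.60 to -0.54, adjusted p from 0.0923 to 0.104). The response to glycerol was lower with Yrr1IE in 8, all but *PIR1* and *HSP150*, beside 12% of all genes called higher and 19.4% called lower. It differed most in *CIS3* (-2.96, standard error 0.18, adjusted p = 1.03e-13), *CWP2* (-2.49, standard error 0.19, adjusted p = 2.55e-11) and *CWP1* (-2.04, standard error 0.24, adjusted p = 1.22e-07). *CRH1* (-1.43), *YGP1* (-1.41), *PIR3* (-1.35), *PST1* (-1.15) and *SED1* (-0.94) followed. The YPD libraries enter both contrasts, and in YPD 9 of the 10 genes were already higher with Yrr1IE than with Yrr1S. *HSP150* (-0.11) and *PST1* (-0.41) were not called between Yrr1IE and Yrr1S in 4NQO, whereas in YPD they differed by 0.53 and 0.73. *YGP1* was not lower with Yrr1IE in glycerol (0.32, not called), so its lower response there reflects its level in YPD (1144 against 346 CPM). *PIR3* differed by 0.97 in YPD and by -0.38 in glycerol. *CWP1* differed by 1.58 in YPD and by -0.45 in glycerol, and *PST1* by 0.73 and by -0.42. The glycerol calls of *PIR3*, *CWP1* and *PST1* were lost without single libraries and in other fits, as given above. *CIS3*, *CWP2*, *CRH1* and *SED1* were called lower in glycerol as well. Allele and *SNF1* cannot be told apart in either contrast.

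With Yrr1Y the response to 4NQO was lower than with Yrr1S in 2 genes, *PIR3* (-1.59, standard error 0.32, adjusted p = 0.0123) and *PST1* (-0.89, standard error 0.20, adjusted p = 0.0241), beside 0.121% of all genes called higher and 0.746% called lower. *PIR3* was lost without S1, S2, S4, S7, S8 or S9, each left out alone (from -1.70 to -1.27, adjusted p from 0.0506 to 0.254), and *PST1* without S2, S4, S7, S8 or S9, each left out alone (from -0.92 to -0.71, adjusted p from 0.0617 to 0.324). *YGP1* (-0.75, adjusted p = 0.0651) did pass without S3 (-0.93, adjusted p = 0.03), with DESeq2 (-0.73, adjusted p = 0.0294), in a fit of the compared conditions alone (-0.76, adjusted p = 0.0252) and with no filter on low counts (-0.74, adjusted p = 0.0407). In the response to glycerol edgeR called none of the 10, beside 0.364% of all genes called higher and 0.26% called lower. An unadjusted p under 0.05 was found for 5 of the 10 and for 633 of all 5766 genes, and DESeq2 called 1 of the 10, *SED1* (-0.46, adjusted p = 0.0411).

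The other genes of the pathway were followed through lists of known function. Over the 3 alleles, 10.3% to 15.9% of all genes were called higher and 9.85% to 15.3% called lower in 4NQO. In glycerol these shares were 28.5% to 33.2% and 27% to 32.3%. For Yrr1IE over Yrr1S they were 7.28% and 4.41% in YPD, 2.01% and 2.5% in 4NQO and 20.7% and 27.6% in glycerol. Of 24 genes of integrity signalling, from the sensors to Slt2, its phosphatases and its transcription factors, 5 rose and 2 fell in 4NQO with Yrr1S, 5 and 3 with Yrr1Y, and 5 and 2 with Yrr1IE. In glycerol 5 rose and 7 fell with Yrr1S, 7 and 6 with Yrr1Y, and 8 and 6 with Yrr1IE, near or below the shares of all genes. The phosphatase gene *SDP1* rose in all 6 comparisons, by 1.82, 1.57 and 2.02 in 4NQO and by 2.72, 2.50 and 3.42 in glycerol (log2). With Yrr1IE over Yrr1S in YPD 4 were higher, with *KDX1*, a pseudokinase that is itself a target of the pathway, at 1.79, the sensor gene *MTL1* at 1.22 and *SLT2* at 1.01. In 4NQO 1 was lower (*WSC4*, -0.99), and in glycerol 9 were higher and 1 lower, with *MTL1* at 1.84. The median of the list was 0.02, -0.08 and 0.27 in these media, against -0.02, -0.01 and -0.11 over all genes.

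Of 13 other genes reported downstream of Slt2 and Rlm1, 7 rose and 2 fell in 4NQO with Yrr1S (median 0.37), 5 rose and 3 fell with Yrr1Y (0.36), and with Yrr1IE 4 fell (-0.26). *GSC2*, a glucan synthase subunit of stressed and stationary cells, rose by 2.35 and 2.04 with Yrr1S and Yrr1Y. In glycerol 5 rose and 4 fell, 7 and 2, and 4 and 6 in the order Yrr1S, Yrr1Y and Yrr1IE, with *BAG7* at 3.37, 3.80 and 3.51. In YPD 7 were higher with Yrr1IE than with Yrr1S (median 0.75), among them *SRL3* (1.98), *PRM5* (1.52) and *BAG7* (1.31). In 4NQO 3 were higher and 1 lower (*GSC2*, -1.02), and in glycerol 6 were higher and 2 lower, with *PRM5* at 1.49.

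Of 33 genes of glucan and chitin synthesis and remodelling, 2 rose and 5 fell in 4NQO with Yrr1S, 3 and 5 with Yrr1Y, and 11 fell with Yrr1IE. In glycerol most fell: 21 fell and 6 rose with Yrr1S, 18 and 6 with Yrr1Y, and 20 and 6 with Yrr1IE, with medians of -0.60, -0.62 and -0.61. *UTR2*, a relative of *CRH1* with the same activity, fell with each, at log2 fold changes of -4.55, -4.03 and -4.73, whereas *CRH1* passed with Yrr1IE alone. With Yrr1IE over Yrr1S 7 were higher and 1 lower in YPD, 2 were lower in 4NQO (*SMI1*, -0.96, and *EXG1*, -0.52), and 8 were higher and 12 lower in glycerol, where *KNH1* stood at -4.01, *SMI1* at -2.20 and the glucan-elongating enzyme gene *GAS1* at -1.86.

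Among 25 other covalently bound wall proteins, 8 rose and 6 fell in 4NQO with Yrr1S, 4 and 6 with Yrr1Y, and 4 and 9 with Yrr1IE. In glycerol the counts were 10 and 9, 9 and 8, and 9 and 9. *SPI1*, a GPI protein of stationary cells, rose by 3.03 and 3.42 in 4NQO with Yrr1S and Yrr1Y and by 5.44, 6.18 and 3.87 in glycerol, and *TIR1*, known for its expression in cold and anaerobic cells, fell with Yrr1S (-4.24) and with Yrr1IE (-4.21). With Yrr1IE over Yrr1S 8 were higher and 2 lower in YPD, with *SPI1* at 2.68, 3 and 1 in 4NQO, and 9 and 8 in glycerol, with *FIT2*, a mannoprotein that retains siderophore iron, at -2.97 and *TIR2* at 2.60.

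Of 19 genes of the general stress response, 17, 17 and 13 rose in 4NQO with Yrr1S, Yrr1Y and Yrr1IE, with medians of 2.94, 2.16 and 1.22. In glycerol 17, 17 and 17 rose, with medians of 4.24, 3.30 and 3.79, and 1 fell with Yrr1S. *HSP12*, a small membrane-protecting heat shock protein, rose by 6.64 and 5.82 in 4NQO and by 9.72 and 9.01 in glycerol with Yrr1S and Yrr1Y. In YPD 8 were higher and 1 lower with Yrr1IE than with Yrr1S, *HSP12* by 4.31 and the chaperone gene *HSP26* by 5.22. In 4NQO 5 were lower (*HSP12*, -1.27), and in glycerol 9 were higher and 4 lower. The response to 4NQO was lower with Yrr1IE than with Yrr1S in 9 of them and with Yrr1Y in 5. Between Yrr1Y and Yrr1S 5 were higher with Yrr1Y in YPD, while every other list of wall or secretory genes had at most 1 called gene in each direction in that pair, in any medium.

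Enzymes of the secretory path prepare these proteins for the wall. Of 25 genes of mannosylation and Kex2 processing, 3, 3 and 1 fell in 4NQO with Yrr1S, Yrr1Y and Yrr1IE, and 2 rose with Yrr1IE. In glycerol 2 rose and 15 fell with each allele, the latter with *PMT4*, a protein O-mannosyltransferase (-1.61, -1.62 and -1.57), and *KEX2* (-1.46 with Yrr1S and -1.25 with Yrr1Y). With Yrr1IE over Yrr1S 1 was lower in YPD (*KEX1*, -0.66), and 6 were higher and 6 lower in glycerol, with *OCH1*, which starts the outer mannan chain, at -1.45. Of 15 genes of GPI anchor synthesis and transfer, 2, 2 and 1 fell in 4NQO and 0, 0 and 1 rose. In glycerol 5, 7 and 5 of them fell and 1, 0 and 3 rose, with *GPI2* at 0.88 with Yrr1IE, and *GPI8*, of the transamidase, stood at -1.16, -0.62 and -0.84. In glycerol 4 were higher and 1 lower with Yrr1IE than with Yrr1S, with *MCD4* at 1.12. The lists were described by counts alone, beside the shares of all genes called that are given above for each comparison.

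The pattern of each gene over the 9 condition means of log2(CPM + 1) was set beside those of the 4602 tested genes whose mean reached 20 CPM. The points share libraries, depth and the YPD, 4NQO and glycerol conditions, so r is a description. *PIR1* was most like *EGT2* (r = 0.97) and *AMN1* (0.94). *PIR3* was most like *GLO4* (r = 0.99) and *ATG8* (0.99), *YGP1* like *GRE3* (r = 0.99) and *RTC3* (0.98) and *SED1* like *RAD2* (r = 0.99) and *CBS2* (0.96). *CIS3* was most like *RSA4* (r = 0.98) and *DUS1* (0.98), and *CWP2* like *TIM8* (r = 0.96) and *NUP120* (0.96). For *PST1* the nearest were *ECM9* (r = 0.98) and *GAL4* (0.96), for *CWP1* *YJL118W* (r = 0.92) and *CBF2* (0.91), for *CRH1* *DCP1* (r = 0.94) and *PEX6* (0.94) and for *HSP150* *YPS3* (r = 0.92) and *YPL088W* (0.89). No gene of the 10 had another of the 10 as 1 of its 2 nearest. Between pairs of the 10, r ran from -0.70 (*PIR1* and *YGP1*) to 0.92 (*CIS3* and *CWP2*).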

How the data were processed

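RNA-Seq counts per gene were deposited by the authors, who made them from unstranded paired-end MiSeq reads of 76 bases with CASAVA 1.7, TopHat2 2.0.12 and Rsubread on the S288c genome R64-1-1, after setting aside rRNA and tRNA reads; the builds and versions are as in the submitters' processing notes and the methods of the study. The deposited FPKM values, scaled by the authors to gene length and library total, were used only to set genes beside each other. A deposited table of the authors' DESeq2 1.8.1 results (fold changes, standard errors and p-values) was not used. Some count totals exceed the number of read pairs, so that both mates were counted in part and reads are not independent molecules.

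Counts of the 18 libraries were fitted together in edgeR 4.0.16 (R 4.3.3, limma 3.58.1) by the quasi-likelihood test across all genes, with 1 mean per condition, the filter of filterByExpr (947 of 6713 loci left out), TMM scaling and Benjamini-Hochberg adjustment within each comparison; a call is an adjusted p under 0.05. Precision rests on 2 libraries per condition and the dispersion shared across genes. The standard errors given were derived from the test, as the absolute log2 fold change divided by the square root of its F statistic. Alternatives were DESeq2 1.42.0, its size factors in edgeR, no filter, the compared conditions alone and each library left out. The fit was tested on simulated data. The genes named from other lists are up to 3 called genes with the largest change and a mean of at least 20 CPM per list and comparison, of which the text gives some. The 10 genes, lists and motifs were chosen with earlier results of these data known. Motifs were searched in the R64 reference, and gene names were matched through the annotation. The glycerol samples were grouped by their titles, since their medium label names all media. A further gene list and motif are not reported here.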

Additional observations from a re-analysis of the deposited data

Results flagged for a closer look

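In 18 tests of the contrast of contrasts a gene answered a medium differently with another allele than with Yrr1S, and each value is the log2 response with the named allele minus that with Yrr1S. All 10 genes were tested in each contrast. With Yrr1Y the response to 4NQO differed for *PIR3* (-1.59) and *PST1* (-0.89), beside 0.121% of all genes called higher and 0.746% called lower. Both calls were lost when any of several single libraries was left out, as given above. In the response to glycerol with Yrr1Y edgeR called none of the 10. With Yrr1IE the response to 4NQO differed for *PIR3* (-1.94), *HSP150* (-0.64), *CIS3* (-1.21), *PST1* (-1.15), *CWP1* (-2.46), *CWP2* (-1.37), *SED1* (-1.09) and *YGP1* (-2.85). Among all genes 1.44% were called higher and 3.62% called lower there, and the call of *HSP150* was lost when any of several single libraries was left out. The response to glycerol with Yrr1IE differed for *PIR3* (-1.35), *CIS3* (-2.96), *PST1* (-1.15), *CWP1* (-2.04), *CWP2* (-2.49), *CRH1* (-1.43), *SED1* (-0.94) and *YGP1* (-1.41). Such calls were common in that contrast, with 12% of all genes called higher and 19.4% called lower. The higher levels with Yrr1IE in YPD enter each of these contrasts, as given above. The Yrr1IE libraries hold 0 to 2 counts of *SNF1*, which cannot be told apart from the allele.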

How the results depend on the processing

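No alternative turned the direction of a called value of the 10 genes. Of 190 values per alternative, DESeq2 kept 178 on their side of the threshold, the compared conditions alone 180, edgeR with DESeq2's size factors 184 and no filter 187, and of 920 values without 1 library 840 did. DESeq2 called 2 of the 10 genes between Yrr1Y and Yrr1S in 4NQO (edgeR 1), 1 in glycerol (0) and 1 in the difference of their glycerol responses (0). Without 1 library the number called ran from 0 to 1 between Yrr1Y and Yrr1S in YPD and from 0 to 1 in 4NQO, from 4 to 5 between Yrr1IE and Yrr1Y in glycerol (7 with all libraries) and from 0 to 3 for the 4NQO response of Yrr1Y against Yrr1S. Over all genes DESeq2 called 12 against 3 between Yrr1Y and Yrr1S in 4NQO and 67 against 36 in the glycerol response of that pair. Leaving out 1 library gave, over all genes, 760 to 927 calls against 1163 from YPD to 4NQO with Yrr1Y and 962 to 1126 against 1494 with Yrr1IE. In YPD it gave 5 to 42 against 51 between Yrr1Y and Yrr1S, 375 to 488 against 674 between Yrr1IE and Yrr1S and 473 to 521 against 816 between Yrr1IE and Yrr1Y. In 4NQO the same pairs gave 1 to 6 against 3, 135 to 169 against 260 and 97 to 133 against 234, and in glycerol the first gave 45 to 178 against 216. The difference of 4NQO responses gave 6 to 33 against 50 with Yrr1Y and 170 to 236 against 292 with Yrr1IE, and that of glycerol responses 6 to 95 against 36 with Yrr1Y. Fewer libraries enter each of these fits. The scalings moved the median of all genes by at most 0.0423 on the log2 scale. No paired analysis was possible because the labels do not say which libraries came from the same culture. *PIR3* in YPD had the fewest reads of the 10, which limits its comparisons.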
